A study of Drosophila melanogaster with 14 samples.

Results

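The genes described here are 10 members of the cadherin superfamily of Drosophila melanogaster, picked by name and taken as the rows of their FlyBase IDs among 17807 gene IDs in the RNA count table: shg, CadN, CadN2, Cad74A, Cad86C, Cad87A, Cad88C, Cad89D, Cad99C and kug. The related genes ft, ds and stan were not among them. RNA was taken from dissected wing imaginal discs, the larval epithelia that give rise to the wing blade, hinge and notum, of wandering larvae raised at 25 degrees. In one group, called nub1, the larvae were yw and carried the nub[1] allele of the POU-domain gene nubbin, and in the other, called wildtype, they were yw without it, so the yw markers are common to both. Each group had 3 libraries, and nothing in the labels ties a library to separate crosses, so p-values measure the spread between libraries, which may be technical. The ATAC-seq and rn-GFP ChIP-seq samples were not analysed here.

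Cadherins are membrane proteins whose extracellular repeats bind calcium and, in many members, bind cadherins on the next cell. Classical cadherins connect through armadillo, the fly beta-catenin, and alpha-catenin to actin at the adherens junction that holds epithelia such as the wing disc together. Others are long atypical cadherins or protocadherins, which take part in planar polarity, in tissue shape or in building apical microvilli.

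The libraries held 72134981 to 83448836 counts in nub1 and 58434785 to 82407049 counts in wildtype, and the 10 members together took 0.252% to 0.259% of them in nub1 and 0.253% to 0.272% in wildtype. The mutated gene nub had 13.1, 12.2 and 7.38 CPM (counts scaled to library size and composition by the TMM method) in nub1 discs, against 343, 323 and 321 CPM in wildtype discs. Its neighbour pdm2 was also lower in every nub1 library, with means of 0.107 ± 0.0426 CPM in nub1 and 57.1 ± 0.394 CPM in wildtype (SD, n = 3 each), so the contributions of these genes cannot be told apart in this comparison. The wing disc markers vg, ap, wg, sd, en and dpp were present in all libraries, summing to 1559 to 1657 CPM in nub1 and 1709 to 1729 CPM in wildtype. Replicate 3 of nub1 stood apart from its group: it differed from replicates 1 and 2 by 32.1 and 24.7 chi-square per degree of freedom, while those differed from each other by 4.15. The wildtype pairs lay between these values, at 16.2 (replicates 1 and 2), 15.6 (1 and 3) and 17.7 (2 and 3).

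Of the 10 cadherin genes, 8 had enough counts to be tested. Of these, 2 were called higher in nub1 discs (Cad87A and Cad74A), 4 were called lower (Cad88C, CadN, kug and Cad99C) and 2 were not called (shg and Cad86C), by edgeR's quasi-likelihood test at an adjusted p under 0.05. Over all 9186 tested genes, 24.4% were called higher and 23.9% lower, 48.3% in all, so the share of members called higher is near the background and the share called lower is above it, in a list of 8 that includes Cad88C, which passed the filter on low counts through its wildtype libraries. Libraries of the genotypes did not overlap for 7 of the 8 tested members, against 60.0% of all tested genes. The changes were small: apart from Cad88C, a gene with very few counts, the largest was the log2 fold change of -0.34 of CadN. The median log2 fold change was -0.11 for the 8 tested members and -0.00303 for all tested genes, and the median size of change over all tested genes, regardless of sign, was 0.15. The number of members called higher was 0 without nub1 replicate 2, and 1 without nub1 replicate 3, wildtype replicate 2 or wildtype replicate 3.

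**Figure D1:**
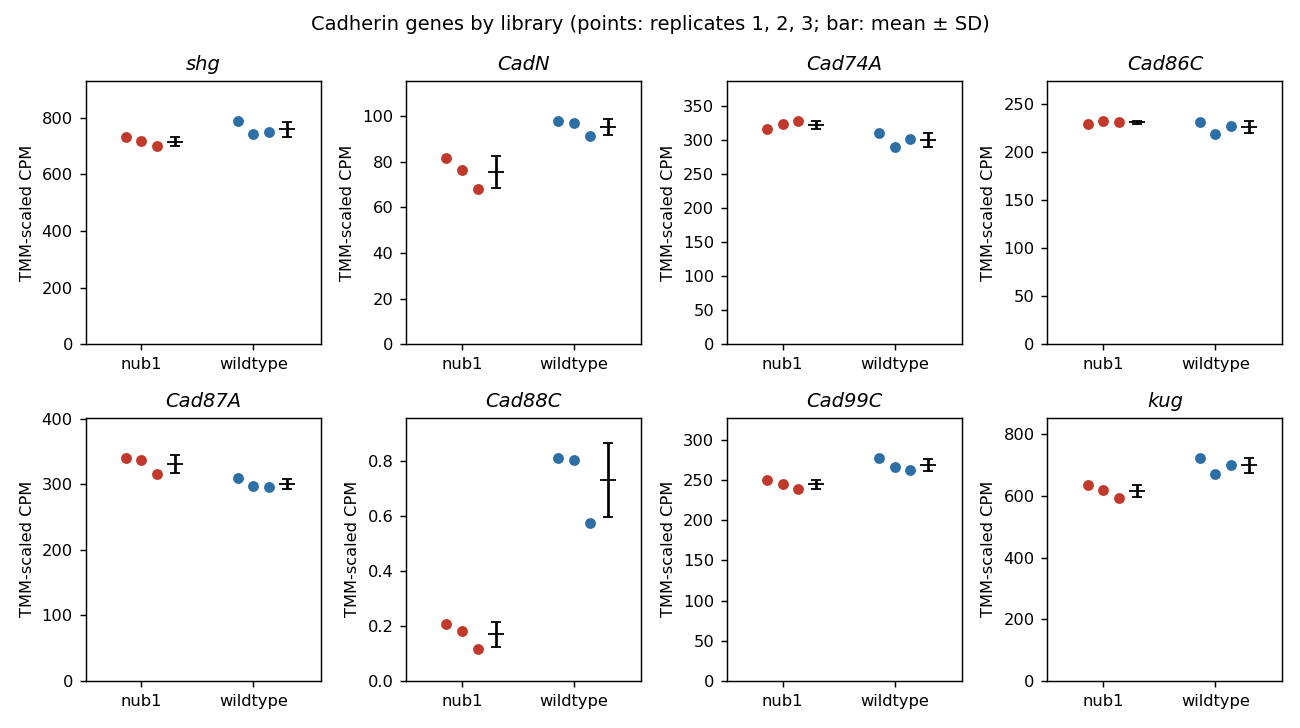
TMM-scaled CPM (y axis, linear from 0, own scale per panel) of the 8 tested cadherin genes in the 3 nub1 and 3 wildtype libraries, with replicates 1 to 3 from left to right and the mean ± SD beside them. The points separate clearly for CadN (67.8 to 81.6 CPM in nub1, 91.0 to 97.7 CPM in wildtype) and Cad88C, lie close together for shg, and overlap for Cad86C.

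The classical cadherins of the disc are shg and CadN. The gene shg (FBgn0003391, arm 2R, 21049654 to 21057197, coordinates throughout from Release 6) encodes E-cadherin, the main adhesion molecule of the fly's epithelial junctions. It had 729.8, 716 and 699.7 CPM in nub1 discs, against 787, 740.3 and 748 CPM in wildtype discs. No nub1 library reached the lowest wildtype library, but the lowest wildtype value was close to the highest nub1 value. The log2 fold change was -0.08 ± 0.03 (SE; 95% interval -0.16 to -0.01) and was not called (edgeR adjusted p = 0.0585). Without wildtype replicate 2 it was called lower (log2 fold change -0.10; edgeR adjusted p = 0.0429). The gene held 167400 counts over the nub1 libraries and 152035 over the wildtype libraries, so counting error was small beside the spread between libraries.

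CadN (FBgn0015609, arm 2L, 17647053 to 17778340) encodes N-cadherin, which is best known from neurons, where it guides axon targeting, and from mesoderm. It fell in nub1 discs. Values were 81.6, 76.5 and 67.8 CPM in nub1 libraries, against 97.7, 96.7 and 91.0 CPM in wildtype libraries. The lowest of all was nub1 replicate 3, and the nub1 libraries were more spread (75.3 ± 6.96 CPM) than the wildtype libraries (95.2 ± 3.60 CPM; SD, n = 3 each). This is a log2 fold change of -0.34 ± 0.07 (SE) with an edgeR adjusted p of 0.00596, and 29.0% of all tested genes changed by at least as much. Without nub1 replicate 3 it was -0.27, still called lower.

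Since CadN is expressed in cells other than the disc epithelium, markers of such cells were read in the same libraries. Myoblast markers (twi, Mef2, htl, stumps, Him, zfh1 and Ama), from the muscle precursors attached to the notum, summed to 481 to 531 CPM in nub1 and 565 to 623 CPM in wildtype. Of these 7 markers, 3 were called higher and 2 lower, against 24.4% higher and 23.9% lower over all tested genes. The number of them called lower was 1 without wildtype replicate 1 or 2. Their sum followed Ama, at 174 CPM in nub1 and 309 CPM in wildtype, whereas htl was at 48.9 CPM in nub1 and 30.6 CPM in wildtype. Neuronal markers (elav, nSyb, Syt1, brp, fne, Appl and futsch) summed to 56.9 to 59.9 CPM in nub1 and 58.5 to 65.2 CPM in wildtype. Of the 6 tested neuronal markers, 2 were called higher and 3 lower, with 1 higher when nub1 replicate 1, 2 or 3 or wildtype replicate 2 or 3 was left out. Among the markers called lower, brp passed the filter on low counts through its wildtype libraries. No marker of either list was without counts in all libraries. The part of these cells in the CadN result was not tested, and in bulk tissue fewer cells of a type and less RNA per cell cannot be told apart.

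CadN2 (FBgn0262018, arm 2L, 17786971 to 17875247) lies next to CadN and encodes a shorter N-cadherin that acts with it in photoreceptor axon targeting. It had 0, 2 and 0 counts in nub1 libraries and 0, 0 and 2 counts in wildtype libraries. The transcript was thus at the edge of detection in both genotypes, and no fold change is given. A library without counts allows up to 3 counts, which is 0.0353 to 0.0414 CPM in nub1 and 0.0366 to 0.0525 CPM in wildtype (counting error only). The planned ratio of CadN2 to CadN was not computed for this reason.

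The atypical cadherin kug (FBgn0261574, arm 3L, 20005301 to 20024607), also called Fat2, is known for the planar polarity of basal actin and the rotation of egg chambers in the ovary. It fell in nub1 discs. The libraries had 634, 619 and 594 CPM in nub1, against 723, 672 and 699.7 CPM in wildtype. The groups did not overlap, and the difference in means (616 ± 20.1 CPM in nub1 and 698 ± 25.4 CPM in wildtype; SD, n = 3 each) was larger than either spread. On the log2 scale kug changed by -0.18 ± 0.04 (SE; edgeR adjusted p = 0.00322), which 43.8% of all tested genes reached or passed in size.

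Cad99C (FBgn0039709, arm 3R, 29841657 to 29854699), a relative of a vertebrate protocadherin of hair-cell stereocilia, sets the length of microvilli in ovarian follicle cells. It also fell, with 249.9, 245 and 239 CPM in nub1 libraries and 277, 266 and 262 CPM in wildtype libraries. The groups stood apart without overlap, and the change on the log2 scale was -0.14 ± 0.03 (SE; edgeR adjusted p = 0.00641). Its annotated span overlaps that of dgt1 by a few bases at one end, and dgt1 itself (46.5 ± 0.589 CPM in nub1 and 48.8 ± 1.48 CPM in wildtype; SD, n = 3 each) was not called (edgeR adjusted p = 0.103).

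Cad87A and Cad74A were the members called higher. Cad87A (FBgn0037963, arm 3R, 11893512 to 11949129) had 340.5, 337 and 315 CPM in nub1 discs, against 309, 297 and 296 CPM in wildtype discs. Here nub1 replicate 3 came nearest to the wildtype libraries but remained above them. Cad87A changed by 0.14 ± 0.04 (SE) on the log2 scale with an edgeR adjusted p of 0.0110, and the call was lost without nub1 replicate 2 (log2 fold change 0.13; edgeR adjusted p = 0.0510). The genes CG14731 and CG34307, which lie within its span, had 1 and 0 counts over all 6 libraries.

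Cad74A (FBgn0036715, arm 3L, 17367753 to 17379530), whose expression is patterned in the follicular epithelium of the ovary, had 316, 324 and 328 CPM in nub1 discs and 310.4, 289.5 and 301 CPM in wildtype discs. The lowest nub1 library exceeded the highest wildtype library by a narrow margin. This amounts to a log2 fold change of 0.10 ± 0.03 (SE) and an edgeR adjusted p of 0.0267. The call held without nub1 replicate 1 or wildtype replicate 1 (edgeR adjusted p = 0.0350 and 0.0127) and was lost without nub1 replicate 2 or 3 or wildtype replicate 2 or 3 (edgeR adjusted p = 0.0863, 0.0679, 0.0635 and 0.0593) and without both libraries numbered 3 (edgeR adjusted p = 0.0942).

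Cad86C (FBgn0261053, arm 3R, 10827079 to 10849030) is known in the eye disc, where Hedgehog and Dpp signalling induce it in the morphogenetic furrow. In wing discs it had 229, 232 and 232 CPM in nub1 libraries and 232, 219 and 227 CPM in wildtype libraries. The groups overlapped and the nub1 libraries agreed to within a coefficient of variation of 0.688%. Cad86C was not called, at a log2 fold change of 0.03 ± 0.03 (SE) and an edgeR adjusted p of 0.384, with a 95% interval of -0.03 to 0.10, so a change larger than that in either direction lies outside the interval.

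**Figure D2:**
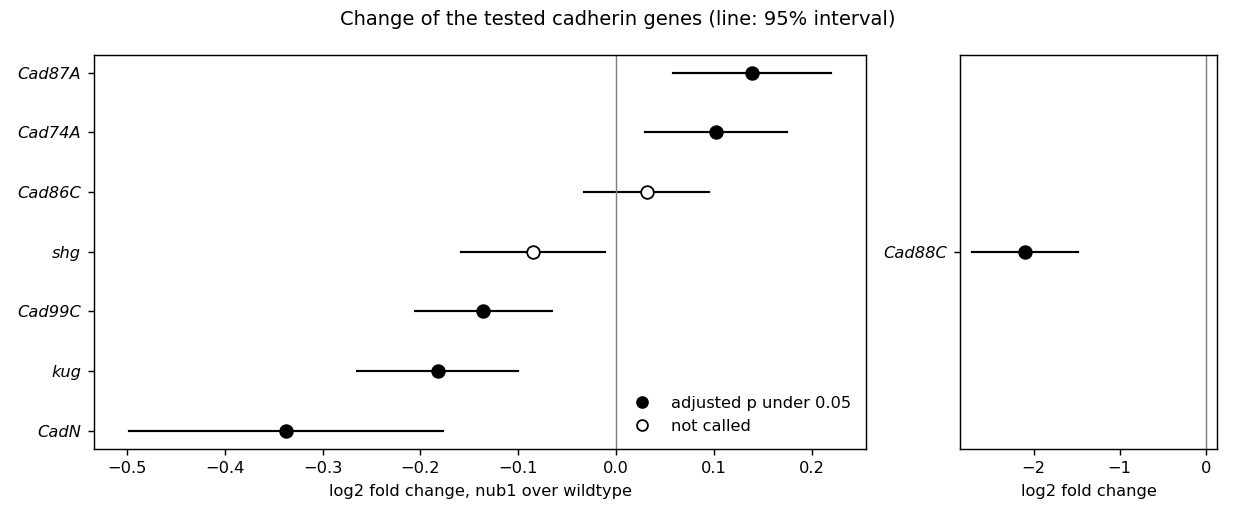
Log2 fold change of nub1 over wildtype (x axis) for the 8 tested cadherin genes, with the 95% interval as a line, filled points for genes called at an adjusted p under 0.05 and open points for the others; Cad88C has its own axis. Cad87A and Cad74A lie above 0, Cad86C lies across it, and the interval of shg (-0.16 to -0.01) ends just below it although its adjusted p did not pass.

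Cad88C and Cad89D were barely expressed. Cad88C (FBgn0038247, arm 3R, 14630478 to 14641776) had 15, 14 and 10 counts in nub1 libraries, against 50, 46 and 47 counts in wildtype libraries. Every nub1 library was far below every wildtype library, at means of 0.169 ± 0.0462 CPM in nub1 and 0.730 ± 0.135 CPM in wildtype (SD, n = 3 each). The log2 fold change was -2.10 ± 0.27 (SE; 95% interval -2.72 to -1.48; edgeR adjusted p = 0.000290), a size that 3.77% of all tested genes reached. All 3 wildtype libraries but 2 of 3 nub1 libraries were at the level that the filter on low counts asks for, so this gene entered the test through the wildtype group. Its span lies inside that of CG7886, which had 39, 38 and 25 counts in nub1 libraries and 46, 37 and 33 counts in wildtype libraries and was not called (edgeR adjusted p = 0.279). No source used here gives the strand setting of the counting, and only gene spans were compared. Whether reads were shared between Cad88C and CG7886 was not tested. Markers of other tissues at low levels moved both ways. The haemocyte marker NimC1 (3.85 CPM in nub1 and 0.830 CPM in wildtype) was called higher. The haemocyte markers eater (3.56 and 7.57 CPM), srp (2.16 and 3.72 CPM) and He (1.11 and 1.78 CPM) were called lower. Hml and Pxn of that list were not called. Of the neuronal markers, Syt1 (1.23 and 0.578 CPM) was called higher, and brp (0.0811 and 0.233 CPM) and Appl (1.15 and 1.80 CPM) lower. Of the salivary gland glue genes Sgs1, Sgs3, Sgs4, Sgs5, Sgs7 and Sgs8, 0 of 6 tested were called higher and 6 lower. Their median log2 fold change was -2.19, and 24.4% of all tested genes were called higher and 23.9% lower. As with Cad88C, Sgs1 (2, 1 and 2 counts in nub1 libraries) and Sgs4 (6, 13 and 12 counts) entered the test through the wildtype group. So did brp (6, 6 and 7 counts in nub1 libraries), and for such genes the filter favours a call of lower. The number of glue genes called lower was 5 with limma-voom, at an adjusted p under 0.01 or without nub1 replicate 1. The glue genes summed to 1.92 to 2.71 CPM in nub1 and 7.16 to 8.96 CPM in wildtype. None was without counts in all libraries, and their part in the Cad88C result was not tested.

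Cad89D (FBgn0038439, arm 3R, 16484566 to 16495422) had 0, 1 and 0 counts in nub1 libraries and 0, 1 and 2 counts in wildtype libraries. It was not tested, and like CadN2 it was at or under the floor of detection.

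**Figure D3:**
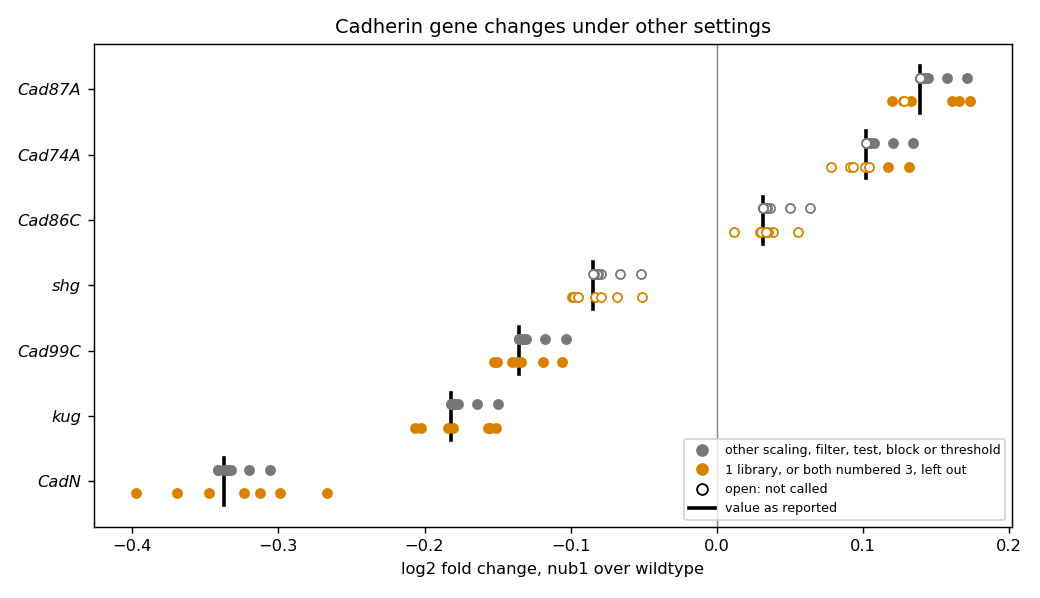
Log2 fold change of nub1 over wildtype (x axis) for 7 cadherin genes as reported (black bar), under other scalings, filters, tests, thresholds and the replicate block (grey points) and with libraries left out (orange points); open points were not called. CadN, kug and Cad99C stay filled and below 0 throughout, from -0.40 to -0.27 for CadN with libraries left out. Cad74A, Cad87A and shg hold open and filled points.

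The make-up of the cadherin counts was compared within each library, which does not depend on scaling between libraries. These are shares of reads and not of transcripts, since exon lengths were not used here, and for the same reason levels of different cadherins were not put in order. The share of shg was 28.3%, 28.1% and 28.3% in nub1 libraries and 28.8%, 28.7% and 28.5% in wildtype libraries. The difference was -0.424 percentage points, with no overlap between groups (exact permutation test, two-sided, p = 0.10, the smallest p that 3 libraries against 3 can give). The share of kug averaged 24.3% ± 0.278 in nub1 and 26.4% ± 0.310 in wildtype, and that of CadN 2.97% ± 0.213 in nub1 and 3.59% ± 0.141 in wildtype (SD, n = 3 each). The shares of Cad87A (13.1% ± 0.267 in nub1 and 11.3% ± 0.133 in wildtype) and Cad74A (12.7% ± 0.493 in nub1 and 11.3% ± 0.135 in wildtype) were higher in every nub1 library than in any wildtype library. The same held for Cad86C (means of 9.12% in nub1 and 8.54% in wildtype), which was not called and whose CPM overlapped between groups. Within a library, lower shares of some members raise the shares of the others. A higher share alone thus does not show a rise of that gene.

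Of 8 tested partners of E-cadherin at the adherens junction, 1 was called higher and 1 lower, against 24.4% higher and 23.9% lower over all tested genes. Their median log2 fold change, over members on both sides of 0, was -0.02. The gene arm, encoding the beta-catenin that binds the cadherin tail, had 1234, 1214 and 1198 CPM in nub1 discs and 1304, 1333 and 1289 CPM in wildtype discs. It was called lower (log2 fold change -0.11 ± 0.03 (SE); edgeR adjusted p = 0.0123), though not without nub1 replicate 2 (edgeR adjusted p = 0.0588) or both libraries numbered 3 (edgeR adjusted p = 0.0635). The gene pyd, which encodes the fly ZO-1 scaffold, was called higher, with 833, 808 and 838 CPM in nub1 discs and 769, 732 and 761 CPM in wildtype discs (log2 fold change 0.13 ± 0.03 (SE); edgeR adjusted p = 0.00639). The groups did not overlap for arm or pyd. The log2 fold changes of alpha-Cat (alpha-catenin), p120ctn, Vinc (vinculin), jub (Ajuba), cno (afadin) and ed (the immunoglobulin-type adhesion protein Echinoid) ran from -0.07 to 0.08, and none of them passed the test with all libraries. With wildtype replicate 2 left out 2 partners were called lower, cno being added (edgeR adjusted p = 0.0212), and with nub1 replicate 2 left out 0 were. With nub1 replicate 3 or wildtype replicate 1 left out, or with scaling by the upper quartile or by library size only, 2 were called higher, p120ctn being added (edgeR adjusted p = 0.0421, 0.0397, 0.0420 and 0.0398).

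Among 7 other genes with cadherin domains, 2 were called higher and 2 lower, with a median log2 fold change of 0.05. These shares are to be read against the 48.3% of all tested genes called in either direction. The large atypical cadherins of the Fat and Dachsous system moved apart: ds was called higher (log2 fold change 0.45 ± 0.04 (SE); edgeR adjusted p = 2.28e-05) and ft lower (-0.12 ± 0.04 (SE); edgeR adjusted p = 0.0235), while stan, the Flamingo cadherin of planar polarity, was not called (-0.06 ± 0.04 (SE); edgeR adjusted p = 0.268). The ft call was lost without nub1 replicate 1 or 2 or wildtype replicate 1 or 3 (edgeR adjusted p = 0.0678, 0.0940, 0.0838 and 0.0827), without both libraries numbered 3 (edgeR adjusted p = 0.0806) and with library sizes only (edgeR adjusted p = 0.0990). Cals, which encodes calsyntenin, had 331, 324 and 301 CPM in nub1 discs and 379.8, 365 and 371 CPM in wildtype discs. These groups did not overlap, and its fall (log2 fold change -0.22 ± 0.04 (SE); edgeR adjusted p = 0.00149) was larger in size than that of kug, a difference between genes that was not tested. Ret, a receptor tyrosine kinase with cadherin-like repeats, was low and called higher, with means of 2.70 ± 0.200 CPM in nub1 and 2.05 ± 0.229 CPM in wildtype (SD, n = 3 each; edgeR adjusted p = 0.0245). Its call was lost without nub1 replicate 1 or 2 or wildtype replicate 1 or 3 (edgeR adjusted p = 0.0691, 0.0857, 0.0760 and 0.0655). Each of those omissions left 1 gene of the list called higher and 1 lower. Cad96Ca, a receptor tyrosine kinase, and Cad96Cb did not pass the test (log2 fold changes 0.05 and 0.20).

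Genes that act with Fat2 in the ovarian follicle epithelium were read beside kug. Of 4 tested, 0 were called higher and 1 lower, a share near the 23.9% of all tested genes called lower, and the median log2 fold change was -0.10. The one called was msn, encoding the kinase Misshapen, at 455, 478 and 463 CPM in nub1 discs and 504, 496 and 486 CPM in wildtype discs (log2 fold change -0.09 ± 0.03 (SE); edgeR adjusted p = 0.0297). It was lost, leaving 0 called lower, without nub1 replicate 3 or wildtype replicate 1 or 2 (edgeR adjusted p = 0.0739, 0.0978 and 0.0581), without both libraries numbered 3 (0.0685), and with scaling by the upper quartile (0.0780) or library size only (0.157). It was also lost without nub1 replicate 1 (edgeR adjusted p = 0.115), where Sema5c was called lower instead (edgeR adjusted p = 0.0241). The receptor phosphatase gene Lar, the semaphorin gene Sema5c and the plexin gene PlexA had log2 fold changes of -0.11, -0.11 and -0.06 and did not pass with all libraries.

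**Figure D4:**
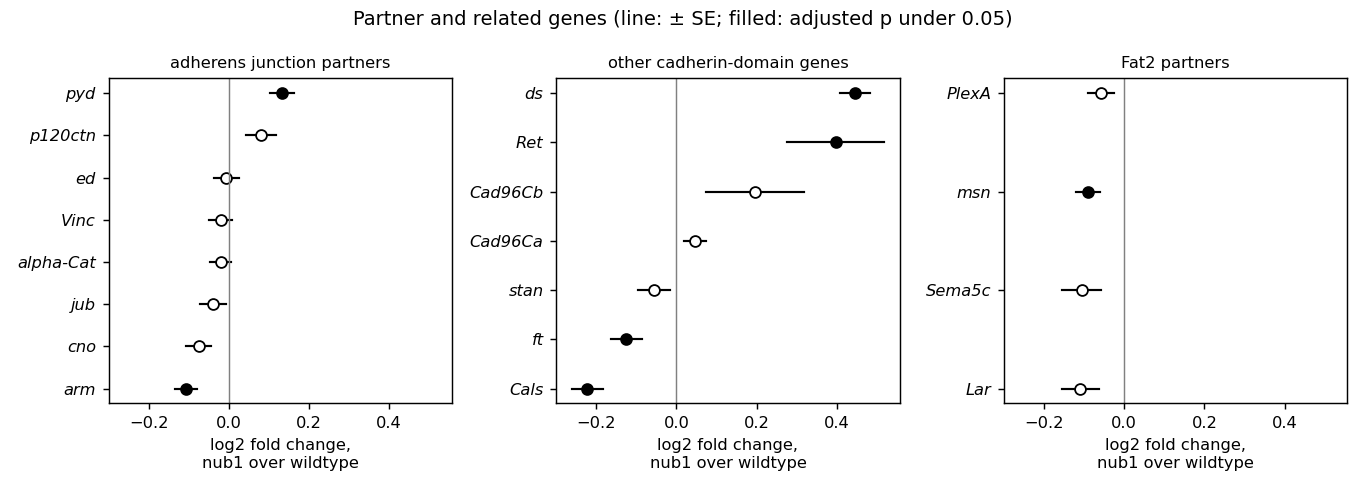
Log2 fold change of nub1 over wildtype (x axis) with its SE as a line for the adherens junction partners, the other cadherin-domain genes and the Fat2 partners, filled where called at an adjusted p under 0.05. Most points lie near 0, ds and Ret lie highest, at 0.45 and 0.40, and Cals lies lowest, at -0.22.

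Marker genes of disc regions and other tissues were read in the same libraries, from lists chosen with earlier results of these data known. Over all tested genes, 24.4% were called higher and 23.9% lower. The pouch list, of the region that forms the wing blade, had 0 of 8 tested members called higher and 8 lower, and summed to 816 to 854 CPM in nub1 and 1454 to 1502 CPM in wildtype. The hinge list had 3 of 6 tested members called higher and 2 lower, and summed to 3268 to 3398 CPM in nub1 and 2671 to 2807 CPM in wildtype. The hinge sum followed zfh2 (1267 CPM in nub1 and 825 CPM in wildtype) and Sox15 (294 and 145 CPM), with tsh (404 and 353 CPM) also called higher. Doc1 (12.0 and 42.5 CPM) and Doc2 (10.2 and 31.9 CPM) were called lower, and hth (1338 and 1320 CPM) was not called. The notum list had 3 of 5 tested members called higher and 0 lower, and summed to 466 to 502 CPM in nub1 and 408 to 425 CPM in wildtype. Tracheal markers, 3 of 5 higher and 1 lower, summed to 1463 to 1516 CPM in nub1 and 999.6 to 1057 CPM in wildtype. Their sum followed verm (802 CPM in nub1 and 501 CPM in wildtype), serp (380 and 265 CPM) and Gasp (237 and 164 CPM). The gene trh was called lower, at 59.6 CPM in nub1 and 83.8 CPM in wildtype, and btl, at 16.1 and 14.3 CPM, was not called. Low sums were found for markers of differentiated muscle, haemocytes and fat body. Muscle markers, 4 of 5 higher and 0 lower, summed to 52.9 to 67.2 CPM in nub1 and 38.1 to 52.9 CPM in wildtype. Haemocyte markers, 1 of 6 higher and 3 lower, summed to 62.7 to 67.2 CPM in nub1 and 39.8 to 75.0 CPM in wildtype. Fat body markers, 1 of 5 higher and 1 lower, summed to 21.6 to 26.5 CPM in nub1 and 17.9 to 51.9 CPM in wildtype. The part of these regions and cell types in the cadherin changes was not tested.

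The genes whose pattern over the 6 libraries was most like that of a cadherin were found by the root mean square difference of centred log2 CPM, among tested genes averaging 5 CPM or more. For shg these were Sap47, FBXO11 and CG12316, with differences of 0.00564, 0.0107 and 0.0117. For CadN they were br, sick and ergic53, with differences of 0.0122, 0.0174 and 0.0174. For kug they were Exo70, Tmtc3 and Charon, with differences of 0.0149, 0.0165 and 0.0189. The 6 points share their libraries and genotype, and with 9186 genes tested close matches can arise from the number of genes alone.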

How the data were processed

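The RNA-seq table of 6 wing disc libraries (3 nub1, 3 wildtype) holds raw, unnormalized counts per gene, as deposited by the authors. A directional kit was used for library preparation, per the labels' protocols. HISAT2, featureCounts, bcl2fastq, Bowtie2, deepTools and the build dm6 are named without role or version, per the submitters' processing notes; no source used here gives the strand setting, the handling of multi-mapping reads or the annotation release. A symbol was found for 17710 of 17807 IDs, and IDs without one (97) took 0.687% of all counts. Positions are RefSeq, Release 6.

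After filterByExpr 9186 genes were scaled by TMM (edgeR 4.0.16, R 4.3.3) and fitted with edgeR's robust quasi-likelihood model with genotype as its single term. The glmQLFTest p-values were adjusted by Benjamini-Hochberg over all these genes, and genes under 0.05 were called. The SE is the size of the log2 fold change divided by the square root of F, and 95% intervals use the t quantile. No list was tested as a set. All 10 members are named, and up to 4 called members per partner list with the smallest adjusted p. Other genes named are examples chosen after their values were seen. The members and lists were chosen with earlier results of these data known. Exon lengths were not used here, so the per-length levels planned at first were not computed. Replicate pairs all differed by more than sampling noise (chi-square per degree of freedom of 4.15 and above). Alternatives changed the scaling, filter, test (DESeq2 1.42.0 or limma-voom, limma 3.58.1) or threshold, added a replicate block or left out libraries. The code was tested on simulated data with the same dispersion for all genes. There, 1 of 50 genes changed 1.1-fold, 26 of 50 changed 1.2-fold and 50 of 50 changed 1.5-fold were called. Only 50 genes were changed at each fold among 9107 tested, while 48.3% of genes were called in the disc data. The adjusted threshold was thus harder to reach in the simulation, and these shares do not carry over to the disc data. Of all calls in the simulated data, 5.22% were false. Plots were drawn with matplotlib 3.10.9.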

Additional observations from a re-analysis of the deposited data

How the results depend on the processing

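CadN, kug, Cad99C and Cad88C kept their direction and call under each alternative run for them, Cad88C not being tested with the filter of at least 5 CPM in 3 libraries. All 8 tested members kept their direction throughout, and their adjusted p values over the alternatives reached 0.0340 for CadN, 0.0212 for kug, 0.0319 for Cad99C, 0.0510 for Cad87A and 0.0942 for Cad74A, and ran from 0.0177 to 0.235 for shg. At an adjusted p under 0.01, 1549 genes were called higher and 1418 lower, with 0 members called higher and 4 lower. The number of members called higher ran from 0 to 2 with 1 library left out and was 1 without both libraries numbered 3. Same-numbered libraries correlated at 0.03, 0.03 and 0.23 in deviations from their group means, and not every library correlated best with its own number. The highest value was that of the libraries numbered 3, so whether replicate numbers mark a shared batch cannot be told. With the replicate block 2451 genes were called higher and 2437 lower, 2 members higher and 5 lower, shg being added (edgeR adjusted p = 0.0177). The block also raised the junction partners to 2 higher and 2 lower, adding p120ctn and cno (edgeR adjusted p = 0.0366 and 0.0403), and the Fat2 partners to 2 lower, adding Sema5c (edgeR adjusted p = 0.00644). Among the named members and partners, directions turned for junction partners near 0. The log2 fold change of ed was 0.0123 with the upper quartile, 0.0264 with library sizes only, 0.0109 without both libraries numbered 3 and -0.0183 to 0.0188 with 1 library left out, and those of alpha-Cat and Vinc were 0.0120 and 0.0127 with library sizes only. The cause was not tested. Scaling by library size put the median of all tested genes at 0.03, against -0.00303 with TMM, a shift about as large as the SE of most cadherin changes. Alternatives on transcript length, on scaling of per-length levels and on the ratio of CadN2 to CadN were not run, as those values were not computed. Counts of CadN2 and Cad89D are too few to show a difference at this depth.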

Other observations

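For every 100 counts of shg there were 11.2, 10.7 and 9.70 counts of CadN in nub1 libraries, against 12.4, 13.1 and 12.2 in wildtype libraries. The groups did not overlap. This quantity was chosen after its values were seen and was not tested.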
